A study of Mus musculus with 8 samples.

Results

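The proteasome genes examined here were the 48 genes of the authors' deposited table whose names follow the mouse symbols for proteasome subunits and their helpers (Psma to Psmg followed by a number) and whose mean count was at least 10. The mean count is the read count of a gene divided by a size factor for each library and averaged over the libraries. The pattern matched 50 of the 17597 genes in the table, and 13590 genes of all kinds reached that minimum. Psmc3ip, whose product acts in meiotic recombination, matches the pattern but is no proteasome subunit, and it is kept in the counts unless stated.

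Libraries came from mouse embryonic stem cells of a Cast x 129S background, in which METTL3, the enzyme that writes N6-methyladenosine (m6A) on RNA, carried the FKBP12 F36V degron tag. All cells also had a TetOn promoter in place of the Xist promoter on 1 allele, which the labels give as 129S and the study's text as Cast, and none received doxycycline. Of the 8 libraries, 4 came from cells given dTAG-13 during 26 hours and 4 from untreated cells, and 2 libraries of clone C3 and 2 of clone H5 stood in either group. Each tagged line is a single clone, the cells were grown on inactivated fibroblast feeders, and the labels do not say whether the libraries of a clone came from separate cultures. The p-values therefore measure the spread between these libraries, which may be technical within a clone. The authors' comparison, at default settings, has no term for the clone, so the spread also holds differences between the clones. The labels give the molecule as total RNA, as the study's methods do, whereas their extraction text describes chromatin RNA. All 8 libraries carried the tag, so effects of the small molecule itself and of METTL3 loss cannot be told apart here.

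The proteasome is the large protease that destroys proteins marked with ubiquitin chains. Its barrel-shaped core is built from stacked rings of alpha subunits, which form the gate, and beta subunits, some of which cut peptide bonds. A regulatory particle caps the core: its base holds a ring of ATPases that unfold substrates, and its lid removes ubiquitin. Embryonic stem cells are known for high proteasome activity, and degraders such as dTAG-13 act by bringing a ubiquitin ligase to the tagged protein, which the proteasome then destroys.

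In these libraries Psmd7, which encodes a lid subunit, was higher with dTAG-13, and 11 of the 48 proteasome genes (22.9%) were lower. Of all genes whose mean count reached 1000, 20.7% were lower, and of those whose mean count reached 10, 12.0%. The lower proteasome genes included Psmg1 and Psmg2, which encode partners in 1 chaperone dimer for assembly of the alpha ring. They also included alpha ring genes (Psma2, Psma3, Psma6), an ATPase gene (Psmc6), regulatory particle genes (Psmd1, Psmd6, Psmd8, Psmd14) and the activator gene Psme4. The changes were small, between -0.64 and -0.23 on the log2 scale for the lower genes and 0.57 for Psmd7. Of the 11 lower calls, 9 were lost when the trend of the fold change on mean count was removed across all genes, and Psmg1 and Psmg2 were the exceptions.

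The table holds no values of single libraries and does not name its numerator. Values above 0 were taken to mean more RNA after dTAG-13, following the order TEtranscripts uses, and every direction would turn if the contrast were inverted. Each value below is the authors' deposited log2 fold change over 8 libraries with its standard error (SE) or 95% interval, and the threshold was 0.05 for the adjusted p. Mettl3 RNA, whose protein the degron removes, averaged 684 normalized reads, with a log2 change of -0.09 (SE 0.31, adjusted p = 0.886). The 5 stem cell markers (Pou5f1, Nanog, Sox2, Esrrb, Zfp42) had mean counts from 3444 to 11934, and the 5 feeder markers (Col1a1, Col1a2, Col3a1, Thy1, Pdgfrb) from 8.38 to 116. None of these 10 genes was past the threshold, and the log2 fold changes of the feeder markers lay between 0.12 and 0.61. In bulk RNA, fewer cells of a type and less RNA per cell cannot be told apart.

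Of the 48 proteasome genes, 1 was higher, 11 (22.9%) were lower and 36 were not past the threshold. Among all genes whose mean count reached 10, 13.5% were higher and 12.0% lower. Among the 3632 genes whose mean count reached 1000, the corresponding shares were 7.46% and 20.7%. Of the 35 proteasome genes at that level, 10 (28.6%) were lower. The median log2 fold change was -0.18 over the 48 genes, with 34 of them below 0, against -0.01 over all genes and -0.12 over genes whose mean count reached 1000, of which 68.9% were below 0. The median of the 48 proteasome genes, of which only 35 reached that level, differed from that of these abundant genes by -0.060. With the mean count trend removed it was -0.059, with 30 of 48 genes below 0. In that alternative 2 of the 48 proteasome genes were lower, against 10.1% of all genes whose mean count reached 10. Of genes whose mean count reached 1000, 9.36% were lower there.

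**Figure D1:**
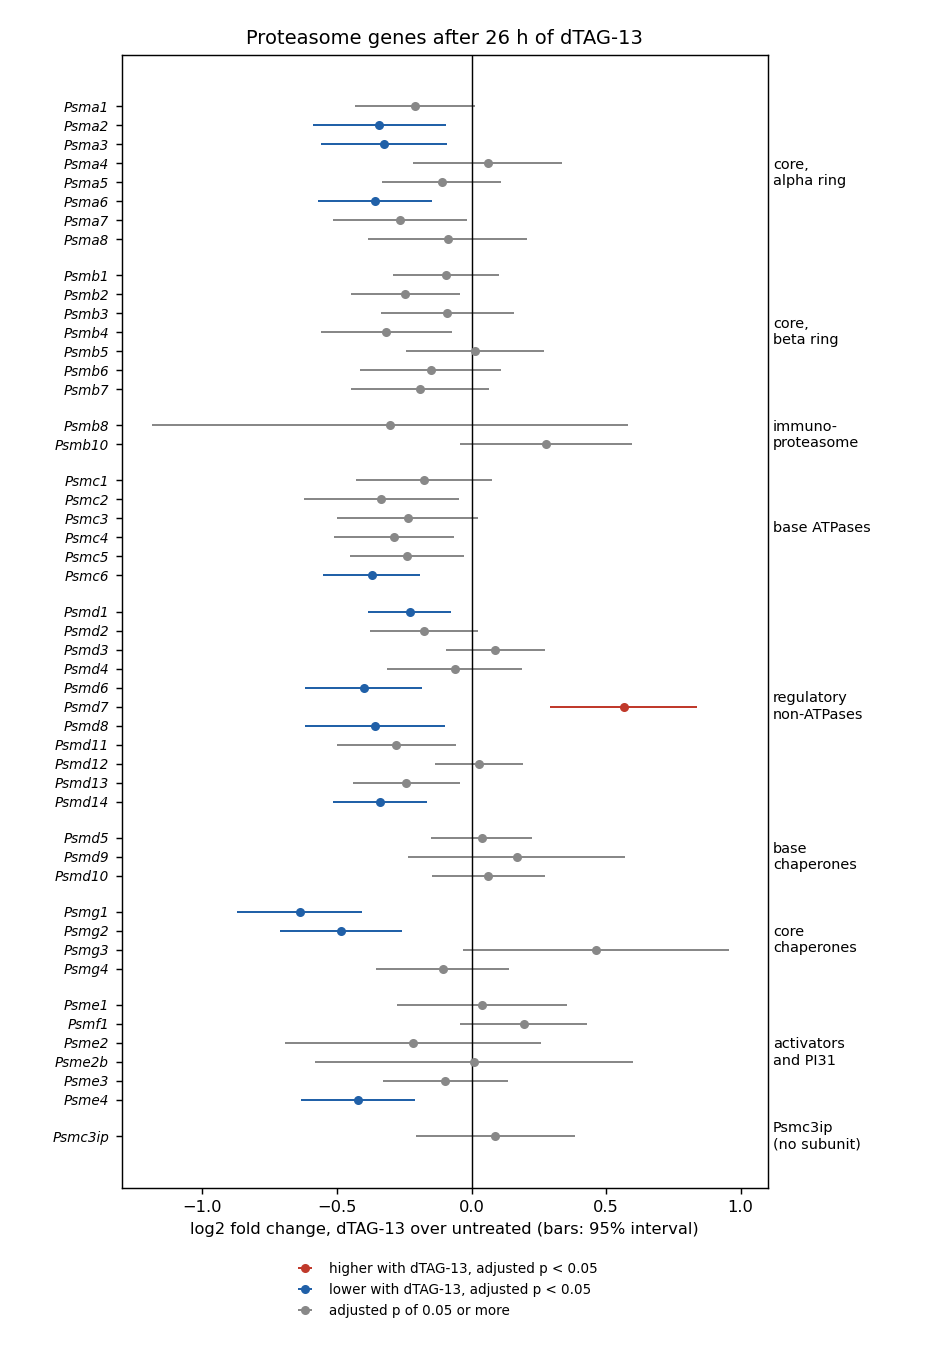
Log2 fold change of each of the 48 proteasome genes, dTAG-13 over untreated, with 95% intervals, grouped by role. Points show the authors' deposited estimate over 8 libraries; 1 gene, Psmd7, was higher, 11 were lower and 36 (grey) were not past the threshold.

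Of the members, 31 encode subunits of the ordinary proteasome: 7 alpha, 7 beta, 6 ATPase and 11 other regulatory particle subunits. This grouping was chosen after their values were seen. It leaves out components outside the name pattern, among them Adrm1 and Shfm1. Their log2 fold changes were -0.11 (SE 0.11) and -0.01 (SE 0.14), and neither was past the threshold. The median log2 fold change of the 31 genes was -0.24 and 26 of 31 were below 0, with 8 lower and 1 higher. Among genes whose mean count reached 1000, 68.9% were below 0, 20.7% were lower and 7.46% higher. The median mean count of those genes was 1983, against 3177 for the 31 genes, so the sets were not matched in level. For 26 of the 31 genes the whole 95% interval lay within a 1.5-fold change in either direction. With the mean count trend removed the median was -0.09, 22 of 31 were below 0 and none was lower. Of genes whose mean count reached 1000, 9.36% were lower in that alternative. With the values as deposited, 16 of the 31 reached an unadjusted p under 0.05 in the lower direction. So did 1125 of the 3632 genes whose mean count reached 1000.

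Psmd7 stood apart from the others. It encodes the lid subunit that pairs with Psmd14, the deubiquitinase that strips ubiquitin from substrates before they enter the core. Psmd7 (chromosome 8, 107580381 to 107588464, GRCm38) averaged 4891 normalized reads, with a log2 change of 0.57 (SE 0.14, 95% interval 0.29 to 0.84), which is 1.48-fold (interval 1.22 to 1.79), with an adjusted p of 0.000794. For 29 of the other 30 genes in this grouping the upper bound of the interval lay below the lower bound of Psmd7. The log2 fold changes of the 30 genes ran from -0.40 to 0.09. Its partner Psmd14 was lower, averaging 3372 normalized reads, with a log2 change of -0.34 (SE 0.09) and an adjusted p of 0.00177. The difference between these genes was not tested, since the table gives no covariance between them. Psmd7 kept its call in every alternative that gave single genes a value, with log2 fold changes from 0.57 to 0.73.

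The other lower genes of the regulatory particle encode structural parts. Psmd6, a lid subunit, averaged 2708 normalized reads, with a log2 change of -0.40 (SE 0.11, adjusted p = 0.00314). Psmd8, also of the lid, had -0.36 (SE 0.13, adjusted p = 0.0395) at a mean count of 2861. Psmd1, a large scaffold subunit of the base, had -0.23 (SE 0.08, adjusted p = 0.0239) at a mean count of 7059, the smallest change of any proteasome gene past the threshold. Psmd1 shared 301 exon bases with the gene Gm21972 on the same strand, so reads there could have been assigned to either. Psmd2, the other large scaffold and the most abundant of the 48 genes by mean count (7353), had -0.18 (SE 0.10, adjusted p = 0.243). Psmd3, Psmd4, Psmd11, Psmd12 and Psmd13 ranged from -0.28 to 0.09 and none was past the threshold.

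All 6 ATPase genes of the base had log2 fold changes below 0, from -0.37 to -0.18, and 1 was past the threshold. Of all genes whose mean count reached 1000, 68.9% were below 0 and 20.7% were lower. Psmc6 averaged 3430 normalized reads, with a log2 change of -0.37 (SE 0.09, 95% interval -0.55 to -0.19, adjusted p = 0.000822). It lost its call with the mean count trend removed (adjusted p = 0.0877) and with the trend on GC content removed (adjusted p = 0.158). Psmc1, the most abundant of them with a mean count of 7269, had -0.18 (SE 0.13, adjusted p = 0.382). Psmc4 came close to the threshold at -0.29 (SE 0.11, adjusted p = 0.0577), and Psmc2, Psmc3 and Psmc5 lay between -0.34 and -0.24. These values cover a narrow range beside their errors, which were between 0.09 and 0.15.

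In the alpha ring, which gates the core, 3 of 8 genes were lower. The share was 12.0% of all genes whose mean count reached 10 and 20.7% of those whose mean count reached 1000. All 3 lost their calls with the mean count trend removed and with the trend on GC content removed. Psma6 averaged 2473 normalized reads, with a log2 change of -0.36 (SE 0.11, adjusted p = 0.00802). Psma2 had -0.34 (SE 0.13, adjusted p = 0.0376) at a mean count of 3714, and Psma3 had -0.33 (SE 0.12, adjusted p = 0.0376) at 4042. Psma4, the most abundant of the ring by mean count (4593), had 0.06 (SE 0.14, adjusted p = 0.831). The intervals of Psma4 and Psma2 overlapped. Psma1, Psma5 and Psma7 lay between -0.27 and -0.11. Psma8, which replaces Psma7 in the testis form of the proteasome, averaged 238 normalized reads, with a log2 change of -0.09 (SE 0.15).

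None of the 7 genes for the ordinary beta ring was past the threshold. Psmb4 came nearest at a log2 fold change of -0.32 (SE 0.12, adjusted p = 0.0539). The genes of the 3 catalytic subunits had -0.15 (Psmb6, SE 0.13), -0.19 (Psmb7, SE 0.13) and 0.01 (Psmb5, SE 0.13). Psmb1, Psmb2 and Psmb3 lay between -0.25 and -0.09. Psmb6 also had the highest level per length of all proteasome genes. Psmb7 shares 405 exon bases, 34.9% of its transcript, with Nek6 on the opposite strand, which was itself higher at 0.43 (SE 0.16), and whether the authors' counts used strand is uncertain. All 7 intervals of the ring lay within a 1.5-fold change.

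The immunoproteasome beta subunits replace the catalytic ones after interferon exposure. Psmb8 averaged 13.7 normalized reads, with a log2 change of -0.30 (SE 0.45), so that only a large change was detectable. Psmb10 averaged 463 normalized reads, with a log2 change of 0.28 (SE 0.16, adjusted p = 0.253). Psmb8 was the gene nearest to the minimum from above, followed by Psme2b (mean count 149) and Psma8. Below the minimum were Psmb9, the other immunoproteasome gene (mean count 8.43, log2 fold change -0.35, SE 0.63), and Psmb11, the thymus form of the catalytic subunit. Psmb11 averaged 5.18 normalized reads, with a log2 change of 2.47 (SE 0.82, adjusted p = 0.0189), which rests on very few reads.

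Of the 4 chaperone genes for the core, 2 were lower, against 12.0% of all genes whose mean count reached 10. Psmg1 and Psmg2 form the dimer that guides alpha ring assembly. Psmg1 (chromosome 16, 95979933 to 95990960, GRCm38) averaged 1144 normalized reads, with a log2 change of -0.64 (SE 0.12, 95% interval -0.87 to -0.41, adjusted p = 2.97e-06), the largest decrease and the smallest p of the 48 genes, equal to 0.64-fold. Psmg2 on chromosome 18 averaged 561 normalized reads, with a log2 change of -0.48 (SE 0.12, 95% interval -0.71 to -0.26, adjusted p = 0.000487). Both kept their calls under every scaling, with log2 fold changes from -0.70 to -0.59 for Psmg1 and from -0.48 to -0.42 for Psmg2. Psmg3 and Psmg4 form a second chaperone dimer for the same ring. Psmg3 had a log2 fold change of 0.46 (SE 0.25, adjusted p = 0.210) and Psmg4 had -0.11 (SE 0.13, adjusted p = 0.629). Psmg3 shares 237 exon bases (26.8% of its transcript) with Gm26938 on the same strand. The 3 chaperones of the base, Psmd5, Psmd9 and Psmd10, had log2 fold changes of 0.04, 0.17 and 0.06, and none was past the threshold.

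Among the activators that cap the core in place of the regulatory particle, counted with the regulator PI31, 1 of 6 genes was lower. The share was 12.0% of all genes whose mean count reached 10 and 20.7% of those whose mean count reached 1000. Psme4, which encodes PA200, a nuclear activator, averaged 5392 normalized reads, with a log2 change of -0.42 (SE 0.11, 95% interval -0.63 to -0.21, adjusted p = 0.00122). It lost its call with the mean count trend removed (adjusted p = 0.0874) and with the trend on GC content removed (adjusted p = 0.0662). Psme3, of the nuclear PA28 gamma activator, had -0.10 (SE 0.12). Psme1 and Psme2, whose products form the interferon-responsive activator, had 0.04 (SE 0.16) and -0.22 (SE 0.24), and Psmf1, which encodes PI31, had 0.19 (SE 0.12). Psme2b is a single-exon copy of Psme2 with a log2 fold change of 0.01 (SE 0.30). Reads of the 2 copies can be confused. Their SEs lay at the 95.2nd and 95.8th percentiles of the 500 genes nearest in mean count. A link between the similarity of the copies and the SEs was not tested. The SEs of Psmg3 (96.8) and Psmd9 (93.2) also lay above the 90th percentile, as those of 4 of the 48 genes did in all. Psmc3ip, the gene that is no subunit, had a log2 fold change of 0.09 (SE 0.15). In all, 12 of the 48 genes share exon bases with another gene, 8 of them with one on the opposite strand.

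**Figure D2:**
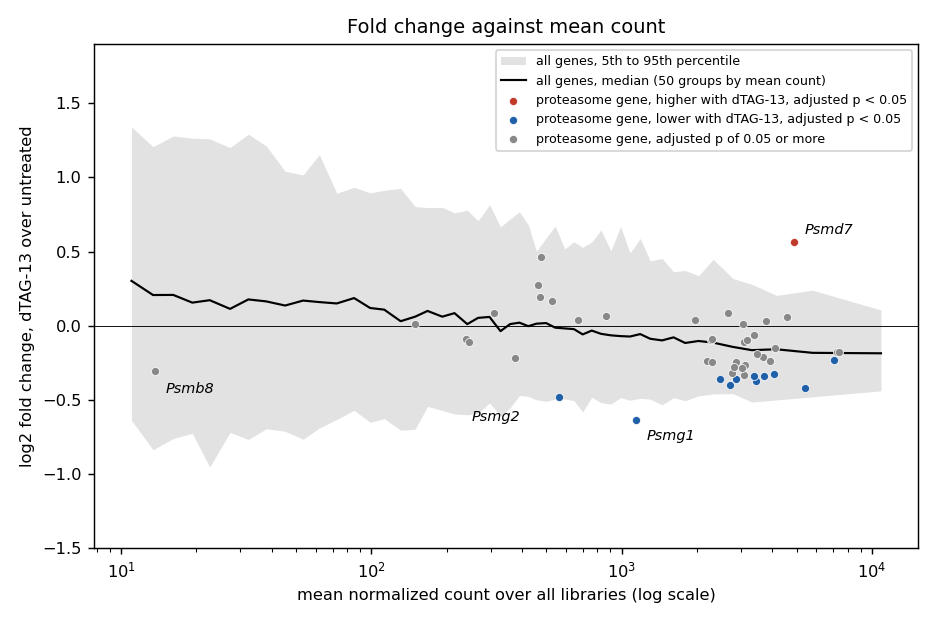
Log2 fold change against mean count (log scale) for the proteasome genes, over the median and the 5th to 95th percentile of all genes whose mean count reached 10, in 50 groups. The median of all genes declines with mean count, and Psmd7 lies at 0.57, above the band, and Psmg1 at -0.64, below it.

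The calls were recomputed under other scalings of all fold changes. When all fold changes were shifted by the median of genes whose mean count reached 100 (-0.05 on the log2 scale), 7 of the 48 proteasome genes were lower. The share was then 9.07% of all genes whose mean count reached 10 and 15.3% of those whose mean count reached 1000. When the trend on GC content was removed, 8 of the 48 proteasome genes were lower, and the same 2 shares were 10.4% and 16.3%. Of the 8, 4 (Psmd6, Psmd8, Psmg1 and Psmg2) were among the 11. The other 4 were Psmb4, Psmc4, Psmc5 and Psmd13. The genes that lost their call with the mean count trend removed had adjusted p-values from 0.0707 (Psmd6) to 0.717 (Psmd1). Psmd7, Psmg1 and Psmg2 were the 3 genes that kept their calls in all 4 alternatives with values for single genes. The signs of all 12 values past the threshold stayed the same throughout.

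**Figure D3:**
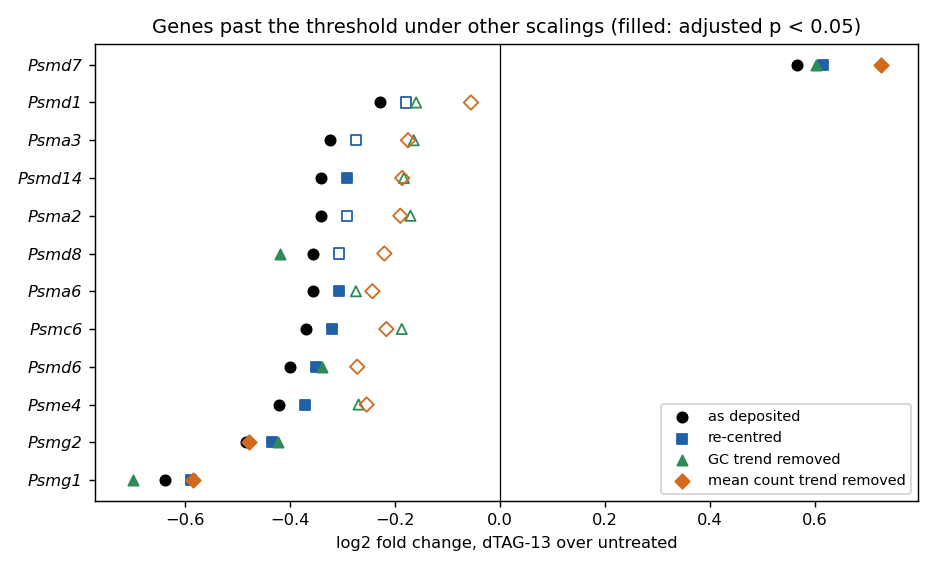
Log2 fold change of the 12 proteasome genes past the threshold under 4 scalings, with filled symbols for an adjusted p under 0.05. Psmd7, Psmg1 and Psmg2 are filled under each scaling, and the other 9 genes are open with the mean count trend removed.

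Levels were compared between genes per kb of transcript, using the length of 1 principal transcript a gene. The 31 ordinary subunits lay close together, between 991 (Psmd11) and 5121 (Psmb6) mean counts per kb, with a median of 2341. Of these, 28 were within 2-fold of the median, and the spread was 40.2% (coefficient of variation). Of these genes, 30 were in the top 10 percent of all genes by this level. The other 17 members had a median of 444 per kb, against 121 for all genes, and Psmb8 had 8.39. Together the 48 genes held 0.882% of the mean counts of all genes.

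**Figure D4:**
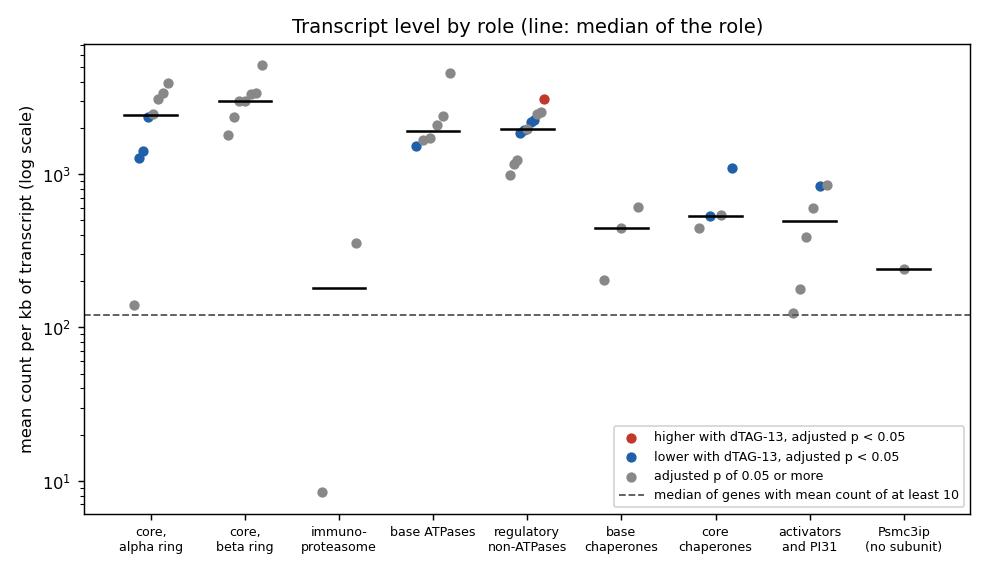
Mean count per kb of transcript (log scale) for each proteasome gene by role, with a line at the median of the role and a dashed line at the median of genes whose mean count reached 10. The 31 ordinary subunits lie between 991 and 5121, and the immunoproteasome gene Psmb8 lies at 8.39.

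The transcripts of these genes are short and densely spliced. m6A is known to be concentrated in long internal exons and around stop codons, often in long last exons, and the exon structure of the members was therefore described. The members had a median of 6.40 exons per kb of transcript, against 3.43 for protein-coding genes, and 40 of 48 were above that value. Their last exons had a median of 352 bases, against 1334, and their 3' untranslated regions 201 against 1003. The sequence GGACT, a preferred form of the m6A motif, occurred 1.24 times per kb in the median member and 1.05 times in the median coding gene. No m6A was measured in this table. Across the 48 genes, Spearman's rho between exons per kb and the log2 fold change was -0.27, and across the 31 ordinary subunits it was 0.08. For GC content rho was 0.29 and 0.35. These are 4 of 16 such descriptive values; the genes share libraries, mean counts and base composition.

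**Figure D5:**
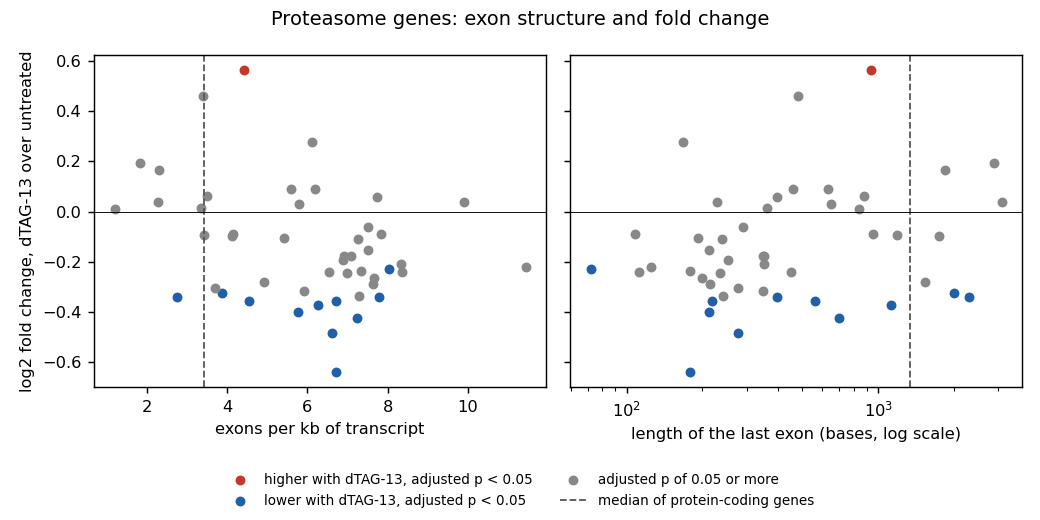
Log2 fold change of each proteasome gene against exons per kb (left) and length of the last exon (right, log scale), with dashed lines at the medians of protein-coding genes, 3.43 exons per kb and 1334 bases. Most of the 48 genes lie at higher exon density (40 genes) and shorter last exons than those medians.

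Promoter sequences are shown for the genes with the largest statistics for which a sequence was at hand, and for Psmb5, one of the least changed, because transcription factors of the NFE2L1 and NFE2L2 type raise proteasome genes through antioxidant response elements. RefSeq sequences (GRCm38.p6), from 250 bases before to 50 after the start, were found for 40 of the 48 genes, in 43 entries. Capitals mark a match to the antioxidant response element core (TGACNNNGC) or to the paired site of NRF1, the nuclear respiratory factor (GCGCA, any base, then GCGC), on either strand. The match begins 33 bases after the start in Psmg1. The promoter of Psme2b, the gene with the smallest statistic of the 48, held no match and is not shown.

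Psmg1 (chr16:95990911-95991210, minus strand): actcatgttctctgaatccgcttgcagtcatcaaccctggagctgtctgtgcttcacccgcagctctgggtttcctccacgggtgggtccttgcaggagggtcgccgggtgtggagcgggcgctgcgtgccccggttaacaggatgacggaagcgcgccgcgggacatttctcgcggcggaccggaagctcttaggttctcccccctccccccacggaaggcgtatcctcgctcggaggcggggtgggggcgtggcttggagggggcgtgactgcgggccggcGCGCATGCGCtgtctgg

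Psmc6 (chr14:45329574-45329873, plus strand): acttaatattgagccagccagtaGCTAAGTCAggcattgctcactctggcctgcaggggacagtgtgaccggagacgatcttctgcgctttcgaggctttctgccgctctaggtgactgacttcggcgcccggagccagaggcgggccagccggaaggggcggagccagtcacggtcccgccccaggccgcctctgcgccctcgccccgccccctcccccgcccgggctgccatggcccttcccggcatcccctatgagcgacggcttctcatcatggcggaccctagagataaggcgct

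Psme4 (chr11:30771525-30771824, plus strand): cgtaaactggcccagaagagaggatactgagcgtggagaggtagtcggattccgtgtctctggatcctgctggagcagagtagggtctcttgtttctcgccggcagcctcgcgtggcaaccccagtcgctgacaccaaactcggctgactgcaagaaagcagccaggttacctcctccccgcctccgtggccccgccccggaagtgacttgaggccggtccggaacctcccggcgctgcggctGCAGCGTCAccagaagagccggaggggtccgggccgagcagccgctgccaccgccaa

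Psmb5 (chr14:54617946-54618245, minus strand): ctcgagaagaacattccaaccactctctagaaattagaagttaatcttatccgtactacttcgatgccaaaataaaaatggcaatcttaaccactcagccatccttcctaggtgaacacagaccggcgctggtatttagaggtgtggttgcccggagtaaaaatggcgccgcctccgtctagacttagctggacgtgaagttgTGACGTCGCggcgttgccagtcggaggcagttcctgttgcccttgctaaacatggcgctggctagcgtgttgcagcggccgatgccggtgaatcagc

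The antioxidant core occurred in 14.0% of the member promoters and in 12.4% of all 32851 promoters. It was found in 6 genes, of which Psmc6 and Psme4 were lower and Psmb5, Psmb6, Psmd9 and Psmd12 were not past the threshold. The CCAAT box occurred in 30.2% against 37.4%. The paired site of the nuclear respiratory factor occurred in 16.3% against 4.60%, in 7 genes: Psma2, Psma3, Psma4, Psmc4, Psmc5, Psmd14 and Psmg1. Of these, 4 were lower (Psma2, Psma3, Psmd14 and Psmg1), and Psma4, Psmc4 and Psmc5 were not past the threshold. Over all 48 genes 22.9% were lower. Psma2, Psma3 and Psmd14 lost their calls with the mean count trend removed and with the GC trend removed. A link between the site and the fold change was not tested. The shares over all promoters are not limited to genes like the members in level or base composition. A match describes the letters only.

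Genes outside the name pattern that work with the proteasome were read from lists, in which 47 of 48 genes were in the table. Of the 47, 6 were higher and 9 lower, against 25.5% of genes whose mean count reached 10 past the threshold in either direction. Among 11 further components and partners, 2 were lower: Txnl1, a thioredoxin-like protein that binds the regulatory particle (log2 fold change -0.42, SE 0.10), and Akirin2, which carries proteasomes into the nucleus (-0.28, SE 0.09). Adrm1, a ubiquitin receptor of the particle, had -0.11 (SE 0.11). In the list on control of proteasome genes, Nfe2l1, the factor that restores proteasome genes after inhibition, had -0.02 (SE 0.08, adjusted p = 0.915).

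Of the 8 genes in that control list, 3 were higher and 1 lower, against 13.5% and 12.0% of all genes whose mean count reached 10. Keap1, the ligase adaptor that directs the NFE2L2 protein to destruction, was higher at 0.84 on the log2 scale (SE 0.17, adjusted p = 1.58e-05). Nfe2l2 itself was higher at 0.33 (SE 0.09, adjusted p = 0.00486), as was Mafk, a DNA-binding partner, at 0.76 (SE 0.24, adjusted p = 0.0117). Ngly1, which removes sugars from the NFE2L1 protein, was lower at -0.59 (SE 0.16, adjusted p = 0.00165). Of the 6 ubiquitin and activating enzyme genes none was past the threshold; Uba1, the main activating enzyme, had -0.20 (SE 0.10, adjusted p = 0.155). Among 12 shuttle and p97 cofactor genes 4 were lower. The share was 12.0% of all genes whose mean count reached 10 and 20.7% of those whose mean count reached 1000. The 4 genes included Ubxn1 at -0.56 (SE 0.10), Faf1 at -0.49 (SE 0.09) and Ubqln1 at -0.29 (SE 0.08). Ubqln1 carries ubiquitinated proteins to the proteasome, and Ubxn1 and Faf1 help p97, the ATPase that pulls proteins from complexes.

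In the antigen-processing list, 3 of 10 genes were higher and 2 lower, against 13.5% and 12.0% of all genes whose mean count reached 10. The class I genes H2-K1 and H2-D1, which present proteasome products, were higher at 0.89 (SE 0.14) and 0.94 (SE 0.15) on the log2 scale, and reads of these similar genes can be confused. Tap2, a peptide transporter subunit, was higher at 0.93 (SE 0.35) with a mean count of 22.6. Nlrc5, which activates class I genes, was lower at -1.18 (SE 0.36) with a mean count of 20.2. Tap1, B2m and Erap1 had log2 fold changes between -0.06 and -0.0033 and were not past the threshold.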

How the data were processed

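RNA-seq libraries of tagged mouse embryonic stem cells, 4 with dTAG-13 and 4 without, were grouped by the treatment in the labels. The authors removed ribosomal reads, aligned pairs with STAR to mm10 with masked strain variants, kept unique alignments and removed duplicates with Picard, per the study's methods and the submitters' processing notes. The authors' comparison was made with TEtranscripts at default settings, which runs the Wald test of DESeq2 on all features. The deposited signal column is the mean count after size factor scaling. The deposited log2 column holds the fold change and a further one its standard error, the deposited score is the Wald statistic. P-values were deposited both raw and after Benjamini-Hochberg adjustment. These columns are the authors' own comparison and no library has values of its own, so no model was refitted. In all 18694 features the statistic, p and adjusted p matched their definitions. The name of the table carries the word reverse, which may mean a strand setting or an inverted contrast.

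Gene models came from GENCODE vM21 (GRCm38), 1 principal transcript a gene, with symbols of all 48 members matched. Intervals are 95% normal intervals from the deposited standard error. Alternatives were a threshold of 0.01, a 2-fold minimum, adjustment over genes whose mean count reached 10, re-centring, and removal of the mean count or GC trend (running medians in 50 groups of genes), with p recomputed from the deposited standard error. The steps were tested on simulated data. Full values are given for members past the threshold, for the member with the largest statistic and the one with the highest mean count in each role, and for those beside the minimum. The other members are given by ranges or with fold change and standard error. Of the pathway genes past the threshold, 2 are counted but not reported here by name. The members and lists were chosen with earlier results of these data known. The grouping of 31 ordinary subunits, the genes whose mean count reached 1000, the 1.5-fold interval count, the percentiles of standard errors, the exon features and the number of groups in the trends were chosen after the values of these genes were seen. Python 3.11.15 with pandas 2.3.3, numpy 2.4.6 and scipy 1.17.1 was used.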

Additional observations from a re-analysis of the deposited data

How the results depend on the processing

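No paired analysis was possible because the table holds no values of single libraries, and leaving out each library in turn was not run for the same reason. The count of lower proteasome genes was 11, and it was 7 at a threshold of 0.01, 0 with a 2-fold minimum, 7 after re-centring and 2 with the mean count trend removed. It was 13 when adjusted over genes whose mean count reached 10, 8 with the GC trend removed and 11 without Psmc3ip. Among genes whose mean count reached 1000, the lower share was 20.7%. It became 15.3% after re-centring and 9.36% with the mean count trend removed. The count of higher proteasome genes was 1 except with a 2-fold minimum, when it was 0. The median log2 fold change of the members moved from -0.18 to -0.059 with the mean count trend removed. It stayed between -0.19 and -0.13 under re-centring, removal of the GC trend, without Psmc3ip, and with a minimum of 100 or none. The 15 other pathway genes past the threshold became 1 with a 2-fold minimum and were between 11 and 15 otherwise. Re-centring also moved the share of higher genes among all called genes whose mean count reached 10 from 52.8% to 63.5%. The cause of these shifts was not tested. With a median SE of 0.12 for members, changes well under 1.5-fold were detectable in most of them, but not in Psmb8 (SE 0.45).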
